A study of Mus musculus with 22 samples.

Results

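The genes described here encode motors of axonal transport: the kinesin-1 heavy chains Kif5b and Kif5c and light chain Klc1, the kinesin-2 subunits Kif3a and Kif3b, the kinesin-3 motors Kif1a and Kif1b, the dynein heavy chain Dync1h1 and intermediate chain Dync1i1, and the dynactin subunit Dctn1. These 10 genes were taken by symbol from a table of 21995 genes measured by RNA-seq in mouse spinal cord. All 10 passed the filter on low counts in both comparisons. For aging, the whole spinal cords of 8 young (3–4 months) and 8 old (18–24 months) wild-type male C57BL/6 mice were sequenced with the Roche KAPA HyperPrep kit. For amyotrophic lateral sclerosis (ALS), 3 SOD1-G93A mice and 3 wild-type controls at 5–6 months by the labels were sequenced with the Illumina TruSeq kit. Both ALS groups held 2 females and 1 male, with sex not tied to a library. The SOD1-G93A animals are transgenic for mutant human SOD1, and this high-copy line was kept on the C57BL/6 background, so it models an inherited form of the disease. The genotype was not checked from the transgene here. Library depth ranged from 5078092 to 9358055 counts in young, 5664869 to 9145600 in old, 10693060 to 13219797 in control and 9675610 to 11872431 in SOD1-G93A mice.

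Most proteins and organelles of an axon come from the cell body, so vesicles, mitochondria and cytoskeletal cargo travel long distances along microtubules. Kinesins carry most of this cargo outward toward the synapse, and cytoplasmic dynein, with its partner complex dynactin, carries endosomes, used organelles and survival signals back. Mutations in several motor genes cause human motor neuron or axon disease, among them KIF5A, DYNC1H1 and DCTN1. Most of these motors are made in many cell types, but some forms are enriched in neurons, such as Kif5a, Kif5c, Kif1a and Dync1i1.

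In old mice, 4 of the 10 genes were lower and none was higher at an adjusted p under 0.05 in edgeR's quasi-likelihood test, the threshold used for every call below. They were Kif5b, Kif3a, Kif5c and Kif1a, and the falls ran from 7.66% to 20.9%. Of all 13647 genes tested, 12.9% were lower and 13.5% higher. In SOD1-G93A mice, 9 of the 10 genes were lower and none was higher, against 15.5% lower and 18.4% higher of the 14386 genes tested. Kif5c and Dync1i1 fell by 45.0% each, and Kif3b was the gene that did not pass. In both comparisons all 10 log2 fold changes were negative, beside 6908 of 13647 genes tested in aging and 7144 of 14386 in ALS. The median of the 10 was −0.12 in aging and −0.51 in ALS, beside −0.0027 and 0.0031 for all genes tested. A correction for transcript length turned the aging value positive for Kif1a (0.0203) and Kif1b (0.0315). Because whole tissue was sequenced, fewer cells of a type and less RNA per cell cannot be told apart.

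The 4 promoter windows below allow a side-by-side reading of Kif5c and Dync1i1, which had nearly the same fold change in ALS, and of Kif3a and Kif3b, the partners in one motor. Each is the 250 bases before the RefSeq start on the plus strand of GRCm38.p6, at chr2:49619036-49619285 for Kif5c, chr6:5725389-5725638 for Dync1i1, chr11:53567119-53567368 for Kif3a and chr2:153291166-153291415 for Kif3b. RefSeq windows matched 9 of the 10 genes. Capitals mark matches, on either strand, to the GC box GGGCGG, the CCAAT box CCAAT, the cyclic AMP response element TGACGTCA and the TATA box TATAAA.
Kif5c: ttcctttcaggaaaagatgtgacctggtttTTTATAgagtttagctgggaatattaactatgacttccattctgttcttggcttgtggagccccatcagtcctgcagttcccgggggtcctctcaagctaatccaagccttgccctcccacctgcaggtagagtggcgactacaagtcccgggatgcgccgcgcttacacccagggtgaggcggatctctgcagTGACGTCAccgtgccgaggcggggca
Dync1i1: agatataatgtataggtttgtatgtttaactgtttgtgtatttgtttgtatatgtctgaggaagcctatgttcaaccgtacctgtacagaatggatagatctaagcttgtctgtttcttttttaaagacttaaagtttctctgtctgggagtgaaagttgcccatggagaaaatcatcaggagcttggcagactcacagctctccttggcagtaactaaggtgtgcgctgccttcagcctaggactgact
Kif3a: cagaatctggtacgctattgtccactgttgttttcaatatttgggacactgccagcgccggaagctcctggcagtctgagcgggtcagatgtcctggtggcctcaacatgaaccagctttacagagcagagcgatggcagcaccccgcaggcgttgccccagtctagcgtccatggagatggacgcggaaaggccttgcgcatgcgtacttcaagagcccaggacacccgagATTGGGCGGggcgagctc
Kif3b: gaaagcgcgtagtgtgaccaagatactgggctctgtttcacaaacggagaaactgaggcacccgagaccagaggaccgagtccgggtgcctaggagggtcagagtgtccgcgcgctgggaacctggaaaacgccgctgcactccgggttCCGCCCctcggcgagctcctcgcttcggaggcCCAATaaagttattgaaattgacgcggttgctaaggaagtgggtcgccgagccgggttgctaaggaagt

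These windows differed in base composition as well as in letters matched. Dync1i1 held 2 CG dinucleotides and none of the 4 motifs, whereas Kif5c held 11 CG dinucleotides, Kif3a 15 and Kif3b 22, beside a median of 6 over all 32851 windows. Kif3a and Kif3b each held 1 GC box and 1 CCAAT box, which occur in 32.7% and 33.8% of all windows. In Kif3a those matches overlap. Kif5c held 1 cyclic AMP response element, present in 1.55% of all windows, and 1 TATA box match, present in 12.4%. Klc1, the light chain that joins Kif5 heavy chains to cargo, also held 1 cyclic AMP response element. These matches are letters in a window and were not measured as binding sites.

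Kinesin-1 is the main motor of fast outward transport, built of heavy chains from the Kif5 genes and light chains that grip the cargo. Kif5b (ENSMUSG00000006740, chromosome 18, 6201002 to 6242174, minus strand, mm10) is the widely expressed heavy chain. In young mice its level ran from 467.9 CPM (counts scaled to library size) through a median of 499.1 to 571.7, and in old mice from 356.5 through 400.8 to 434.0. Every old mouse was below every young mouse. Its log2 fold change of −0.34, with a standard error (SE) of 0.05, had the smallest adjusted p of the 10 genes in aging (edgeR adjusted p = 2.4e-05). In the ALS experiment Kif5b stood at 809.0, 850.5 and 809.1 CPM in controls and at 609.2, 608.5 and 543.7 CPM in SOD1-G93A mice. The groups did not overlap, and the log2 fold change was −0.49 (SE 0.09, edgeR adjusted p = 0.00514). Antisense gene models overlap exons of Kif5b, and whether strand was used in counting is not given in the sources used here.

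Kif5c (ENSMUSG00000026764, chromosome 2, 49619298 to 49774778, plus strand) is a heavy chain enriched in neurons. Young mice ranged from 762.4 CPM through a median of 846.7 to 869.0, and old mice from 688.7 through 735.5 to 755.5. The ranges again did not overlap, with a log2 fold change of −0.20 (SE 0.04, edgeR adjusted p = 0.00027). After a correction for transcript length this value was −0.11, still past the threshold. Controls in the ALS experiment stood at 881.5, 957.9 and 891.1 CPM, and SOD1-G93A mice at 432.5, 626.8 and 441.6 CPM. All SOD1-G93A libraries were far below the controls, and the second of them in the table's order lay well above the other two. The log2 fold change was −0.86 (SE 0.15, edgeR adjusted p = 0.0035), and without that library −1.05.

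Klc1 (ENSMUSG00000021288, chromosome 12, 111758849 to 111807844, plus strand) showed a contrast between the experiments. Its level ran from 594.9 to 642.0 CPM in young and from 575.2 to 633.3 CPM in old mice, with medians of 631.8 and 618.1. These ranges overlapped almost entirely, and the log2 fold change of −0.02 did not pass (95% interval −0.09 to 0.05, edgeR adjusted p = 0.68). With the length correction it was −0.12 and passed (edgeR adjusted p = 0.0158, range over all alternatives 0.0158 to 0.839). In ALS, the controls were tightly grouped at 618.6, 623.0 and 637.8 CPM, and the SOD1-G93A libraries fell to 384.8, 482.6 and 434.7 CPM. This was a log2 fold change of −0.53 (SE 0.10, edgeR adjusted p = 0.00595). Exons of Xrcc3, on the other strand, overlap Klc1.

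**Figure D1:**
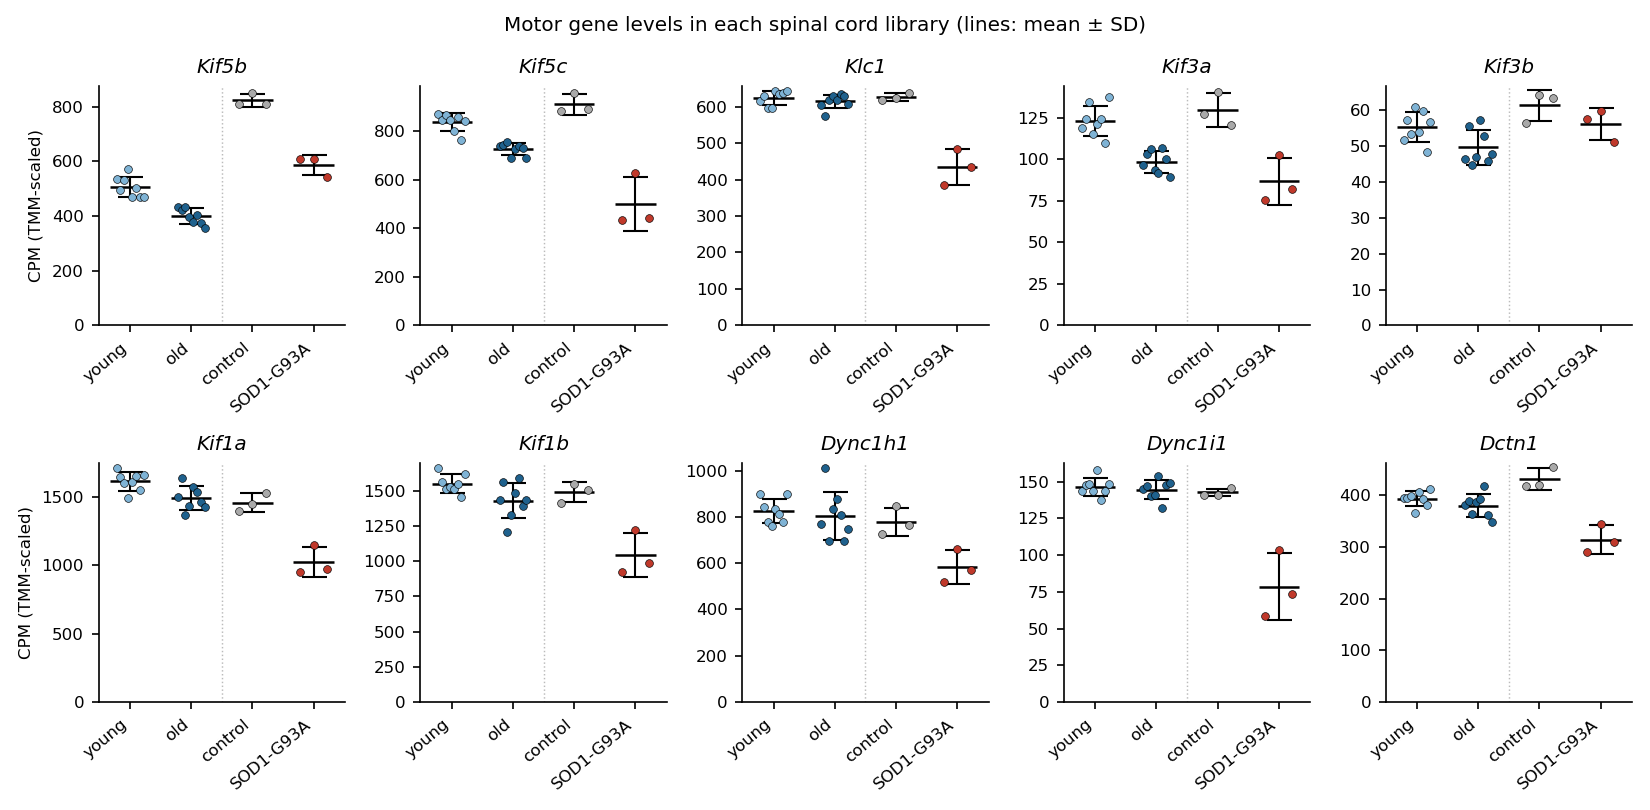
Level of each motor gene in CPM (counts scaled to library size, vertical axis from 0) in every library of the young, old, control and SOD1-G93A groups, with the group mean and SD as lines. Kif5b, Kif5c and Kif3a are lower in all 8 old than in all 8 young libraries, and 9 genes, all but Kif3b, are lower in all 3 SOD1-G93A than in all 3 control libraries. The dotted line parts the experiments, which used different library kits.

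A further kinesin-1 heavy chain, Kif5a, is the neuronal form mutated in human ALS and spastic paraplegia, and served as a paralog for comparison. It averaged 1594 ± 110 CPM in young and 1277 ± 137 CPM in old mice (SD, n = 8 each), with 7 of 8 old mice below every young mouse. The log2 fold change was −0.32 (edgeR adjusted p = 0.000295). In ALS it was 2143, 2277 and 2000 CPM in controls and 1075, 1508 and 1031 CPM in SOD1-G93A mice, a log2 fold change of −0.83 (SE 0.15, edgeR adjusted p = 0.0047). All 3 Kif5 genes were thus lower in both experiments.

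The log2 ratio of Kif5c to Kif5b was 0.73 ± 0.08 in young and 0.87 ± 0.08 in old mice (SD, n = 8 each). The difference of 0.14 passed an exact two-sided permutation test (p = 0.00326, adjusted over 6 ratios 0.0196), so that Kif5b fell by more than Kif5c. On the deposited log2(FPKM + 1) values the difference was 0.11 and did not pass (exact permutation p adjusted over 6 ratios 0.425). In ALS the ratio was 0.14 ± 0.02 in controls and −0.25 ± 0.27 in SOD1-G93A mice (SD, n = 3 each). Control and SOD1-G93A values of this ratio did not overlap, and the exact permutation p of 0.1 is the smallest that 3 against 3 mice can give (0.2 adjusted). For Kif5a to Kif5b the difference was 0.01 in aging (exact permutation p = 0.712) and −0.36 in ALS (exact permutation p = 0.2).

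Kinesin-2 is a motor of Kif3a and Kif3b joined to an adaptor protein, and carries vesicles in axons and building blocks in cilia. Kif3a (ENSMUSG00000018395, chromosome 11, 53567379 to 53601967, plus strand) ran from 110.1 CPM through a median of 122.6 to 137.3 in young mice and from 89.5 through 98.5 to 106.6 in old mice. Young and old ranges did not overlap, and the log2 fold change was −0.32 (SE 0.05, edgeR adjusted p = 4.5e-05). In ALS the controls stood at 127.6, 140.8 and 120.5 CPM and SOD1-G93A mice at 75.6, 102.4 and 82.1 CPM. These did not overlap either, with a log2 fold change of −0.58 (SE 0.12, edgeR adjusted p = 0.00836).

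Kif3b (ENSMUSG00000027475, chromosome 2, 153291413 to 153333390, plus strand), the partner subunit, passed in neither comparison. Young mice ranged from 48.2 to 60.7 CPM with a median of 55.3, and old mice from 44.8 to 57.3 CPM with a median of 47.4. Its log2 fold change was −0.15 (95% interval −0.28 to −0.03, edgeR adjusted p = 0.0698), and it passed when any of 4 of the 16 libraries was left out (range of adjusted p over all alternatives 0.0263 to 0.44). Controls in the ALS experiment were at 56.3, 64.3 and 63.2 CPM and SOD1-G93A mice at 57.4, 59.8 and 51.1 CPM. The groups overlapped, and the log2 fold change was −0.13 (95% interval −0.35 to 0.09, edgeR adjusted p = 0.333). The lower end of that interval lies short of −0.42, the smallest change among the 9 genes that passed. That change, of Dync1h1, has its own 95% interval of −0.68 to −0.15, which overlaps the interval of Kif3b. The difference between these genes was not tested.

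Within a library, the log2 ratio of Kif3a to Kif3b was 1.16 ± 0.13 in young and 0.99 ± 0.17 in old mice (n = 8 each), a difference of −0.17 (exact permutation p = 0.041, adjusted over 6 ratios 0.119). In ALS it was 1.08 ± 0.13 in controls and 0.62 ± 0.20 in SOD1-G93A mice (n = 3 each), with no overlap and an exact permutation p of 0.1, the smallest possible. By the Benjamini-Hochberg adjustment neither difference passed.

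**Figure D2:**
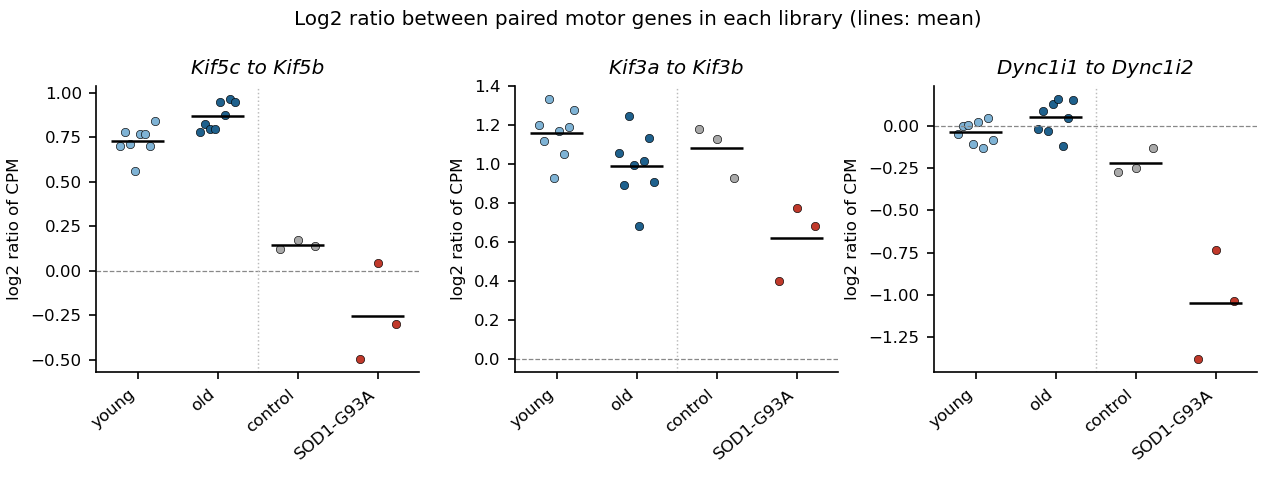
Log2 ratio of CPM (vertical axis) between paired motor genes in each library of the 4 groups, with group means as lines and a dashed line at 0, equal levels. The Kif5c to Kif5b ratio averaged 0.73 in young and 0.87 in old mice, and the Dync1i1 to Dync1i2 ratio stood at −0.22 in controls and −1.05 in SOD1-G93A mice.

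Kinesin-3 motors move synaptic vesicle precursors and dense-core vesicles quickly along axons. Kif1a (ENSMUSG00000014602, chromosome 1, 93015464 to 93101951, minus strand) is the neuronal form. Young mice ranged from 1493 to 1712 CPM with a median of 1631, and old mice from 1367 to 1635 CPM with a median of 1483. The groups overlapped, with 4 of 8 old mice below all young mice, and the log2 fold change of −0.12 (SE 0.04) was just past the threshold (edgeR adjusted p = 0.0429). This call was lost when any of 11 of the 16 libraries was left out, and the fold change was 0.02 after the correction for transcript length (range of adjusted p over all alternatives 0.0149 to 0.736). Controls in the ALS experiment stood at 1399, 1445 and 1531 CPM and SOD1-G93A mice at 949.0, 1147 and 974.4 CPM. These did not overlap, with a log2 fold change of −0.51 (SE 0.11, edgeR adjusted p = 0.00759).

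Kif1b (ENSMUSG00000063077, chromosome 4, 149176319 to 149307693, minus strand) encodes forms that carry mitochondria or synaptic vesicle precursors. Its ranges were 1454 to 1662 CPM in young mice, with a median of 1537, and 1207 to 1592 CPM in old mice, with a median of 1434. The groups overlapped, with a log2 fold change of −0.12 (edgeR adjusted p = 0.0801), and −0.14 without either of 2 old libraries, when it passed (range of adjusted p over all alternatives 0.0197 to 0.611). After the correction for transcript length it was 0.0315 (edgeR adjusted p = 0.611). In ALS Kif1b was at 1410, 1549 and 1505 CPM in controls and at 923.4, 1219 and 987.8 CPM in SOD1-G93A mice. It fell by 0.51 on the log2 scale (SE 0.12, edgeR adjusted p = 0.0125). That call was lost without the second control, the last control or the last SOD1-G93A library in the table's order (edgeR adjusted p = 0.0596, 0.0521 and 0.0647, the last being the highest over all alternatives). The ratio of Kif1a to Kif1b differed by 0.01 on the log2 scale in aging and in ALS (exact permutation p = 0.859 and 0.8).

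Cytoplasmic dynein is the motor of return transport, with a heavy chain that burns ATP and intermediate chains that hold the complex to dynactin. Dync1h1 (ENSMUSG00000018707, chromosome 12, 110601452 to 110666945, plus strand), the heavy chain, ranged from 759.8 to 900.2 CPM in young mice, with a median of 822.2, and from 693.7 to 1010 CPM in old mice, with a median of 787.1. Old mice were more variable and overlapped the young, and the log2 fold change was −0.04 (95% interval −0.17 to 0.10, edgeR adjusted p = 0.713). In ALS the controls stood at 724.8, 845.7 and 765.6 CPM and SOD1-G93A mice at 518.7, 662.1 and 569.8 CPM. Here the groups did not overlap, with a log2 fold change of −0.42 (SE 0.12, edgeR adjusted p = 0.0231). It lost its call when the second or last control, or the first or last SOD1-G93A library, was left out (edgeR adjusted p = 0.104, 0.0693, 0.0599 and 0.0929, at most 0.104 over all alternatives). Gene models on the other strand overlap exons of Dync1h1.

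Dync1i1 (ENSMUSG00000029757, chromosome 6, 5725639 to 6028039, plus strand), the intermediate chain enriched in neurons, had the smallest fold change of the 10 genes in aging and one of the largest falls in ALS. Young mice ranged from 137.4 to 158.0 CPM, with a median of 145.8, and old mice from 132.0 to 154.0 CPM, with a median of 146.1. This was a log2 fold change of −0.02 (95% interval −0.10 to 0.06, edgeR adjusted p = 0.787). In ALS the controls were nearly equal at 141.3, 141.1 and 145.8 CPM, whereas the SOD1-G93A libraries were spread over 58.7, 103.4 and 73.6 CPM. The log2 fold change was −0.86 (SE 0.18, edgeR adjusted p = 0.00725), and −1.11 without the second SOD1-G93A library.

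Its paralog Dync1i2, the intermediate chain found in most cells, stood at 170.8, 167.4 and 159.4 CPM in controls and 153.0, 172.3 and 151.0 CPM in SOD1-G93A mice. The groups overlapped, with a log2 fold change of −0.06 (95% interval −0.26 to 0.14, edgeR adjusted p = 0.614). The log2 ratio of Dync1i1 to Dync1i2 was −0.22 ± 0.08 in controls and −1.05 ± 0.32 in SOD1-G93A mice (SD, n = 3 each), without overlap (exact permutation p = 0.1, the smallest possible). In aging the ratio was −0.03 ± 0.06 in young and 0.05 ± 0.10 in old mice (exact permutation p = 0.0594, adjusted over 6 ratios 0.119), and Dync1i2 alone was lower in old mice (log2 fold change −0.11, edgeR adjusted p = 0.0465), a call lost in 12 of 16 fits with a library left out (adjusted p up to 0.103).

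Dctn1 (ENSMUSG00000031865, chromosome 6, 83165920 to 83200117, plus strand) encodes p150-Glued, the dynactin subunit that binds microtubules and dynein. It ranged from 365.6 to 412.2 CPM in young and from 347.4 to 417.5 CPM in old mice, with medians of 394.5 and 384.1. The old range enclosed the young one, and the log2 fold change was −0.05 (edgeR adjusted p = 0.4). In ALS the controls were at 417.9, 420.3 and 455.0 CPM and SOD1-G93A mice at 289.4, 343.8 and 309.0 CPM. The groups did not overlap, with a log2 fold change of −0.46 (SE 0.10, edgeR adjusted p = 0.00827). The log2 ratio of Dctn1 to Dync1h1 differed by −0.04 in ALS (exact permutation p = 0.7).

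Counted over the motor genes, 3 of 10 had every old library below every young one, beside 1.66% of all genes tested. In ALS 9 of 10 had every SOD1-G93A library below every control, beside 24.7% of all genes tested. The study itself also required a log2 fold change past 1, up or down. No motor gene passed it as lower in aging or in ALS, where 0.044% and 1.2% of all genes tested did.

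Each change in ALS was then compared with the change in aging by an interaction contrast in 1 fit of all 22 libraries, in which kit and experiment coincide. Here 7 of the 10 genes passed the threshold with the more negative change in ALS, beside 14.2% of the 14502 genes tested. None passed with the more positive change, beside 1682 of the 14502. The fit shares its estimate of spread between all groups, and its SE was 0.13 for Dync1i1, 0.11 for Kif5c and 0.08 for Klc1. For the ALS change alone the SE was 0.18, 0.15 and 0.10, so the adjusted p of this contrast can be too small. The SE of the difference was the larger one for Kif5b, Kif3b and Dync1h1. The differences on the log2 scale were −0.87 for Dync1i1, −0.69 for Kif5c, −0.53 for Klc1, −0.44 for Dctn1, −0.42 for Kif1a and Kif1b and −0.41 for Dync1h1, with edgeR adjusted p from 4.04e-05 to 0.0231. For Kif5b (−0.18, edgeR adjusted p = 0.194), Kif3a (−0.29, edgeR adjusted p = 0.0643) and Kif3b (−0.0045, edgeR adjusted p = 0.983) the difference did not pass. The Kif3a difference passed without the second SOD1-G93A library (−0.43, edgeR adjusted p = 0.00211). That of Dync1h1 did not pass without the second control, the first SOD1-G93A or the last SOD1-G93A library (edgeR adjusted p = 0.0852, 0.116 and 0.0677).

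**Figure D3:**
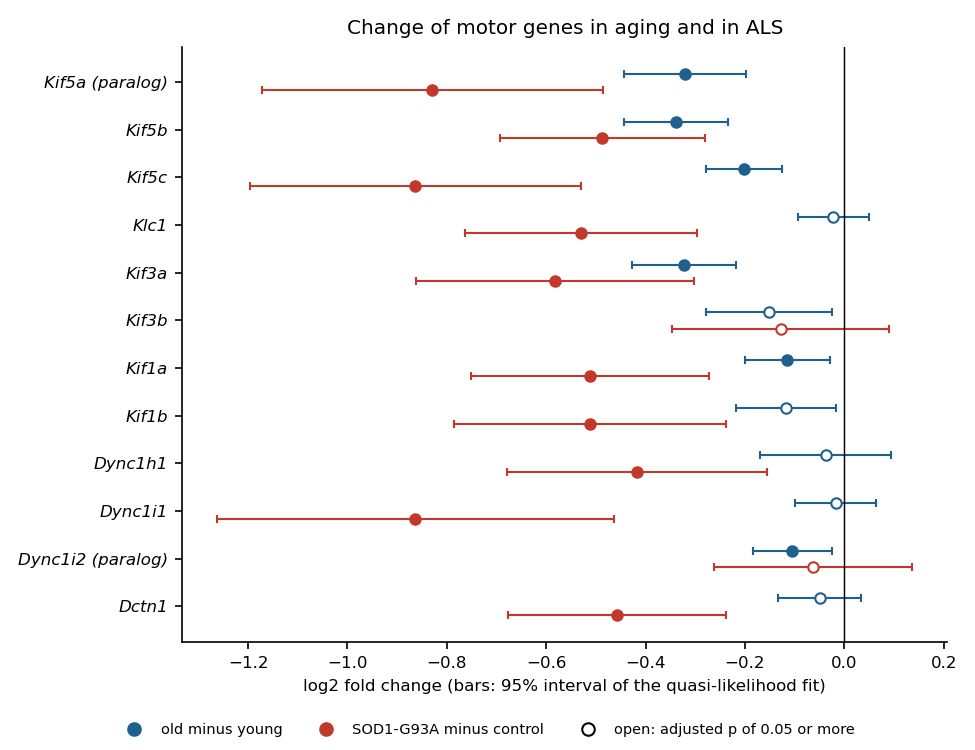
Log2 fold change (horizontal axis) of the 10 motor genes and the paralogs Kif5a and Dync1i2, old minus young in blue and SOD1-G93A minus control in red, with 95% intervals and open points where the edgeR adjusted p was 0.05 or more. Aging changes lie between −0.34 and −0.02, and the ALS changes of all but Kif3b and Dync1i2 lie between −0.86 and −0.42.

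The SOD1-G93A libraries were unlike each other. The second in the table's order was the highest of the 3 in 9 of the 10 motor genes, and the first was the lowest in 8. Summed over 10 general neuronal markers, the 3 libraries held 4103, 6828 and 4769 CPM, against 10040 to 10620 CPM in controls. Thus the library with the highest motor gene levels also had the highest neuronal marker level. All 10 neuronal markers had negative fold changes in ALS, 9 passed, and their median was −0.75. Of all 14386 genes tested in ALS, 7144 had negative fold changes, 15.5% were lower and 18.4% higher. Motor neuron markers summed to 155.6, 143.0 and 140.9 CPM in SOD1-G93A and 287.0 to 322.0 CPM in control mice, with 6 of 8 lower. Microglial and macrophage markers summed to 1791, 958.6 and 1486 CPM against 240.8 to 288.9 CPM in controls, with 7 of 9 higher, and astrocyte markers to between 10820 and 17300 CPM against 5239 to 5777 CPM, with 5 of 6 higher. The part of these cell type markers in the motor gene values was not tested.

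In aging the neuronal markers summed to 7943 to 9882 CPM in old and 8956 to 9916 CPM in young mice, with 4 of 10 lower and a median log2 fold change of −0.14. Of all genes tested in aging, 12.9% were lower and 13.5% higher. Microglial and macrophage markers summed to 394.2 to 658.2 CPM in old and 227.2 to 249.1 CPM in young mice, with 8 of 9 higher. Again their part in the motor gene values was not tested. Schwann cell markers were at 109.2 CPM in the first SOD1-G93A library and at 58.5 CPM in 1 old library, and between 1.39 and 11.7 CPM in all others. The 5 Hox genes taken as markers of spinal cord position summed to 301.0 to 383.9 CPM in SOD1-G93A and 411.9 to 434.8 CPM in control mice, which did not overlap, and to 326.0 to 548.0 CPM in old and 387.1 to 458.9 CPM in young mice. In ALS 1 of 5 was lower, Hoxb8 (log2 fold change −0.38, edgeR adjusted p = 0.0361), beside 15.5% of all genes tested. In aging it was also 1 of 5, Hoxc6 (−0.29, edgeR adjusted p = 0.031), beside 12.9%. The part of the Schwann cell and Hox genes in the motor gene values was not tested. Without the first SOD1-G93A library 8 of the 10 motor genes were lower, and without the second, 9 of 10. Of all genes tested, 1368 of 14491 and 3172 of 14584 were lower in these fits. The lowest count in ALS with any library left out was 7 of 10. For all genes the lowest was 715 of 14528, without the last SOD1-G93A library.

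The rest of the transport machinery was examined with 6 lists, holding 84 genes besides the motor genes above. In aging 24 of the 84 were lower and 11 higher, beside 12.9% lower and 13.5% higher of all genes tested, with a median log2 fold change of −0.05. In ALS 34 were lower and 4 higher, beside 15.5% and 18.4% of all genes tested, with a median of −0.24. These ALS counts depended on single libraries, as did those of all genes tested. Without the second control, the last control or the last SOD1-G93A library, 22, 22 and 14 of the 84 were lower. Of all genes tested, 956 of 14580, 1253 of 14565 and 715 of 14528 were lower in those fits, against 2236 of 14386 with every library. The number higher was 0 or 1 when any library but the second SOD1-G93A was left out. In those fits 1638 to 2035 of all genes were higher, against 2641 with every library. Of the genes named below, Kif21a, Kif3c, Klc2, Ppfia3, Madd, Tubb3, Map1b and Map7d2 kept their ALS call whichever library was left out. Kif13b, Klc3, Dync1li1, Dync1li2, Dynll2, Dynlrb2, Capzb, Actr10, Spag9, Rab3a, Map2 and Tuba1b each lost it in at least 1 of the 6 fits (edgeR adjusted p up to 0.149).

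Among the other kinesin heavy chains and partners, 5 of 12 were lower and 1 higher in aging, and 5 of 12 lower and none higher in ALS. Of all genes tested, 12.9% were lower and 13.5% higher in aging, and 15.5% and 18.4% in ALS. Kif21a, a kinesin that tempers microtubule growth, was lower in both, at 233.9 against 296.7 CPM in aging (log2 fold change −0.34, edgeR adjusted p = 1.25e-05) and 213.1 against 350.5 CPM in ALS (−0.72, edgeR adjusted p = 0.00551). Kif3c, a neuronal partner of Kif3a, fell from 253.9 to 165.0 CPM in ALS (−0.62, edgeR adjusted p = 0.00378), and Kif13b, a kinesin-3 motor, by 0.42 on the log2 scale (edgeR adjusted p = 0.0104). Kif2a, which takes microtubules apart, was lower in old mice (−0.23, edgeR adjusted p = 0.00079), and its exons overlap Dimt1 on the other strand. Kif1c, a widely expressed kinesin-3 motor, was the 1 higher gene in aging (0.20, edgeR adjusted p = 0.000119).

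Of the 3 other kinesin light chains, Klc2 fell in ALS from 354.9 to 212.5 CPM (log2 fold change −0.74, edgeR adjusted p = 0.00516) and stood at 346.2 and 354.2 CPM in young and old mice. Klc3 was higher in both comparisons (1.17, edgeR adjusted p = 0.00093 in aging, and 1.67, edgeR adjusted p = 0.0198 in ALS), but its mean never exceeded 5.47 CPM and its exons overlap Ercc2 on the other strand. The ALS call of Klc3 was lost when any of 5 of the 6 libraries was left out (edgeR adjusted p up to 0.089).

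Of the 12 other dynein subunits, 4 were lower and none higher in aging, and 3 were lower and 1 higher in ALS. The shares of all genes tested were 12.9% lower and 13.5% higher in aging, and 15.5% and 18.4% in ALS. The light intermediate chains Dync1li1 and Dync1li2, which link dynein to cargo adaptors, were lower in both, with log2 fold changes of −0.12 and −0.14 in aging and −0.30 and −0.25 in ALS (edgeR adjusted p = 0.0414, 0.0228, 0.0223 and 0.05, the last just under the threshold). Leaving out single libraries removed the aging calls of Dync1li1 in 7 and Dynll1 in 10 of 16 fits and the Dync1li2 call in 5 of 6 fits in ALS. The light chain Dynll2 fell by 0.43 in ALS (edgeR adjusted p = 0.0105), while Dynll1 fell by 0.15 in aging (edgeR adjusted p = 0.0459). The length correction gave −0.35 for Dynll1 in aging (edgeR adjusted p = 8.12e-05). For Dync1li2 in aging it gave −0.12, no longer past the threshold (edgeR adjusted p = 0.0599). In ALS it gave −0.45 for Dync1li1 (edgeR adjusted p = 0.00469), but also moved the median of all genes from 0.0031 to −0.14. Dynlrb2, a roadblock light chain, was the higher one in ALS, from 0.339 to 1.47 CPM (log2 fold change 2.09, edgeR adjusted p = 0.0234), levels of few counts.

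Of 11 dynactin subunits other than Dctn1, none was lower and 1 higher in aging, and 1 was lower and 1 higher in ALS. These shares are no larger than those of all genes tested (12.9% lower and 13.5% higher in aging, 15.5% and 18.4% in ALS). Capzb, the capping protein at one end of the dynactin filament, which also caps actin, was higher in both (0.15, edgeR adjusted p = 0.0167 in aging, and 0.31, edgeR adjusted p = 0.0401 in ALS). With the length correction Capzb passed in neither, at 0.0398 in aging and 0.0652 in ALS (edgeR adjusted p = 0.58 and 0.574). The medians of all genes were then −0.04 and −0.14. Actr10, at the other end, fell by 0.40 in ALS (edgeR adjusted p = 0.0219).

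Of 26 dynein regulators and cargo adaptors, 12 were lower and 3 higher in aging, and 12 were lower and none higher in ALS. Beside these stand 12.9% lower and 13.5% higher of all genes tested in aging, and 15.5% and 18.4% in ALS. Ppfia2, a liprin of the presynaptic terminal, fell by 0.50 in aging (edgeR adjusted p = 0.000101). Lower too were Spag9, a JNK scaffold that binds kinesin-1 and dynactin (−0.22, edgeR adjusted p = 0.000171), and Bicd2, a dynein adaptor mutated in spinal muscular atrophy (−0.27, edgeR adjusted p = 0.000239). With the length correction Spag9 was at −0.11 (edgeR adjusted p = 0.0321). In ALS Ppfia3, another liprin, fell by 0.64 (edgeR adjusted p = 0.00359), Madd, which ties Kif1 motors to Rab3 vesicles, by 0.60 (edgeR adjusted p = 0.00662), and Rab3a, the synaptic vesicle GTPase, by 0.69 (edgeR adjusted p = 0.0112). Madd was lower in aging too (−0.20, edgeR adjusted p = 0.00422), and so was Ppfia3 (−0.12, edgeR adjusted p = 0.0449). The aging call of Ppfia3 was lost in 9 of 16 fits with a library left out and with the length correction (edgeR adjusted p = 0.15). Spag9 was also lower in ALS (−0.39, edgeR adjusted p = 0.0229), a call lost in 5 of 6 fits with a library left out. Rab3a had been higher in old mice, at 555.7 against 503.2 CPM (log2 fold change 0.14, edgeR adjusted p = 0.0117). That call was lost with the length correction (0.0198, edgeR adjusted p = 0.798) and in 1 fit of all libraries (0.14, edgeR adjusted p = 0.1075). Exons of Mpv17l2 on the other strand overlap Rab3a.

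Of 20 genes listed for the axonal microtubule track, 3 were lower and 5 higher in aging, and 12 were lower and 1 higher in ALS. The list also holds the enzymes Sarm1 and Nmnat2, which are not microtubule proteins. They were among the genes lower in ALS (−0.63, edgeR adjusted p = 0.00332, and −0.29, edgeR adjusted p = 0.0277). Whether these calls hold with a library left out was not examined. For all genes tested the shares were 12.9% lower and 13.5% higher in aging, and 15.5% and 18.4% in ALS. Map2, a dendritic microtubule protein, was lower in both (−0.30, edgeR adjusted p = 0.000633, and −0.59, edgeR adjusted p = 0.0137). The tubulin Tuba1b was higher in old mice (0.26, edgeR adjusted p = 0.00093) and lower in SOD1-G93A mice (−0.47, edgeR adjusted p = 0.0104). Tubb3, the neuronal beta-tubulin, was likewise higher in old mice (0.13, edgeR adjusted p = 0.0178) and lower in SOD1-G93A mice (−0.60, edgeR adjusted p = 0.00205). With the length correction the aging value was 0.16 for Tuba1b (edgeR adjusted p = 0.0386) and 0.0494 for Tubb3, which then did not pass (edgeR adjusted p = 0.392). The changes of Rab3a, Tuba1b and Tubb3, chosen after their values were seen, differed between ALS and aging in the interaction contrast by −0.86, −0.75 and −0.75 on the log2 scale (edgeR adjusted p = 2.56e-05, 3.06e-05 and 1.86e-06). Tubb5 rose by 0.17 in aging (edgeR adjusted p = 0.00183), and Map1b and Map7d2, microtubule-associated proteins, fell by 0.79 and 0.74 in ALS (edgeR adjusted p = 0.00274 and 0.00318).

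**Figure D4:**
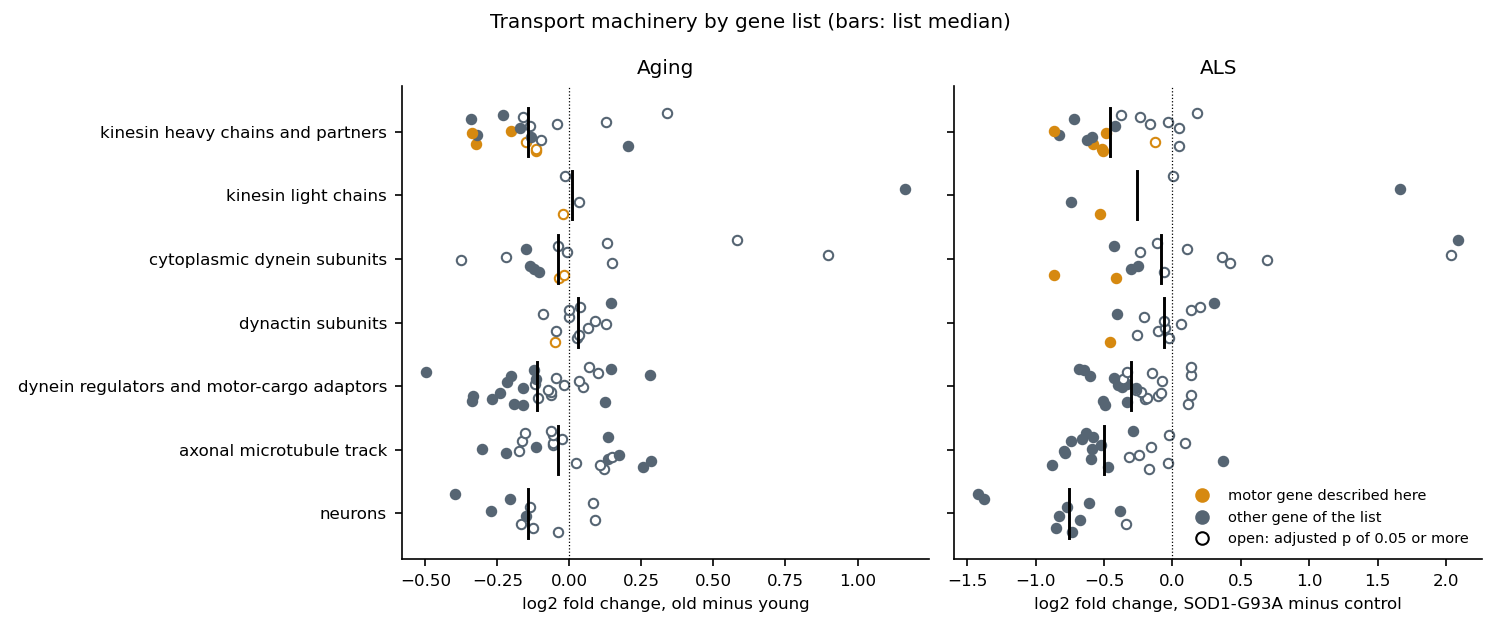
Log2 fold change (horizontal axis) of every tested gene of the 6 transport lists and of the neuronal markers, in aging on the left and ALS on the right, with motor genes in orange, other genes in grey, open points where the edgeR adjusted p was 0.05 or more, and list medians as bars. The microtubule track list, which includes the enzymes Sarm1 and Nmnat2, has a median of −0.04 in aging and −0.50 in ALS, and the neuronal markers −0.14 and −0.75.

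The deposited FPKM (fragments relative to transcript length and to depth) set levels of different genes side by side, as far as the estimated transcript lengths hold. In young mice Klc1 was the highest of the 10 genes at a mean of 367.0 FPKM, followed by Kif1a at 196.6, Dync1h1 at 190.8, Kif1b at 172.1, Kif5c at 139.1, Kif5b at 126.9, Dctn1 at 103.4, Dync1i1 at 58.0, Kif3a at 46.3 and Kif3b at 9.2. The ranges of Kif1a and Dync1h1, of Dync1h1 and Kif1b, and of Kif5c and Kif5b overlapped, and the other neighbours did not. Klc1 was highest and Kif3b lowest in all 4 groups. In SOD1-G93A mice Dync1i1 (31.5 FPKM) came below Kif3a (34.0 FPKM), a pair that overlapped there and not in the other groups. The effective transcript length behind FPKM varied between libraries, from 3.11 to 6.05 kilobases for Dync1h1 and, between kits, from 3.71–4.58 to 6.21–6.35 kilobases for Kif5b. The order of close neighbours, and the whole level and place of Dync1h1 and Kif5b, thus rest on that estimate. The lengths were not checked against the transcripts.

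Within groups some motor genes varied together and others in opposite directions, with r below 0 in 17 of 45 pairs. Over the 16 aging libraries, after group means were removed, Pearson's r was 0.82 between Kif1a and Dync1h1 and between Kif1a and Kif1b, 0.65 between Kif5b and Kif5c, and −0.62 between Kif5b and Klc1, the extremes being 0.82 and −0.62. The points share their libraries and scaling, and the values are a description. The r values that follow kept the group means in, so the difference between old and young mice enters them. For Kif5b, the genes outside the transport lists with the most similar level over the 16 libraries were Zfp638 (r = 0.96), Ttc14 (r = 0.95) and Pcm1 (r = 0.95), and for Kif5c they were Pcm1 (r = 0.98), Tbck (r = 0.96) and Ttc14 (r = 0.95). These genes were lower in old mice too, with log2 fold changes from −0.47 for Zfp638 to −0.30 for Tbck (edgeR adjusted p from 4.16e-06 to 0.00016). In ALS, Ttc14, Zfp638 and Tbck had log2 fold changes of 0.01, −0.15 and −0.10 (edgeR adjusted p = 0.943, 0.197 and 0.41). That of Pcm1 was −0.47 (edgeR adjusted p = 0.0166).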

How the data were processed

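RNA-seq of whole spinal cord from 22 mice in 4 groups was used. Libraries were sequenced on an Illumina HiSeq platform, aligned with STAR and summarized with RSEM and SAMtools 1.3 on the Ensembl annotation of mm10. The authors deposited expected counts per gene, already whole numbers and not scaled between libraries, and, in another table, log2(FPKM + 1) values. The columns name each library's group and not its replicate number. No pair of libraries within a group agreed within sampling noise (chi-square per degree of freedom at least 2.57). Whether p-values reflect separate litters is not given, so they measure the spread between these mice.

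Symbols and positions were taken from GENCODE M21 on GRCm38, which held 21919 of the 21995 genes. Each comparison was filtered (filterByExpr, minimum count 10 and total 15), scaled by TMM and tested with edgeR 4.0.16 (quasi-likelihood, Benjamini-Hochberg over all genes tested) in R 4.3.3. Intervals (95%) used the degrees of freedom of that test. CPM are TMM-scaled. Ratios of log2 CPM (prior count 2) were compared by exact permutation tests with scipy 1.17.1. Alternatives were DESeq2 1.42.0, RLE factors, no filter, at least 10 counts in every library, 1 fit of all libraries, a loess correction (span 0.3) for effective transcript length, the study's fold threshold and each library left out. The procedure was tested on simulated data, with planted log2 changes of 1, up or down, and the same spread for every gene. No motor gene changed by that much in the main fits, so changes of their size were not covered. The motor genes and gene lists were chosen with earlier results of these data known. Named genes are all members, Kif5a, Dync1i2, from every list at most 3 others, lowest adjusted p first, among those under 0.05 in a comparison, and the 3 genes most correlated with the member of smallest adjusted p. Sarm1, Nmnat2, Hoxb8 and Hoxc6 are named besides, outside this rule. Mice with the MNTg transgene were not analysed here.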

Additional observations from a re-analysis of the deposited data

Results flagged for a closer look

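For 11 genes the change in SOD1-G93A mice differed from the change in old mice in the interaction contrast of the 22-library edgeR fit, in which library kit and experiment cannot be told apart. That fit shares its estimate of spread between all groups, so its adjusted p can be too small. The difference on the log2 scale, ALS minus aging, was −0.42 for Kif1a (edgeR adjusted p = 0.00119), −0.42 for Kif1b (0.00561), −0.69 for Kif5c (7.5e-05), −0.53 for Klc1 (4.04e-05), −0.41 for Dync1h1 (0.0231), −0.87 for Dync1i1 (4.04e-05), −0.44 for Dctn1 (0.000529), −0.54 for the paralog Kif5a (0.0056), −0.86 for Rab3a (2.56e-05), −0.75 for Tuba1b (3.06e-05) and −0.75 for Tubb3 (1.86e-06). The last 3 were chosen after their values were seen, as named genes called in opposite directions in aging and ALS. All 11 were more negative in ALS, which for those 3 followed from the way they were chosen. No motor gene or paralog had a young or old library that stood apart from its group by Dixon's test, over 24 groups of 8.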

How the results depend on the processing

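No paired analysis was possible because the table's columns carry no replicate numbers. Counts of motor genes called lower stayed within 3 to 6 in aging and 7 to 9 in ALS over all alternatives but the fold threshold, under which none was lower in either comparison. Fold threshold aside, 1477 to 2200 of all genes were lower in aging and 715 to 3816 in ALS. In aging, Kif1a was −0.11 with at least 10 counts in every library (edgeR adjusted p = 0.0555) and −0.12 in 1 fit of all libraries (0.0773), neither past the threshold. The length correction gave 0.0203 for Kif1a, 0.0315 for Kif1b, −0.12 for Klc1, −0.0029 for Klc2 and 0.0134 for Map1b in aging and −0.24 for Dynll1 in ALS. It moved the median of all genes in ALS to −0.14 and the share of ALS calls that were lower from 45.9% to 64.7%, which spanned 30.4% to 47.7% with libraries left out. Among other transport genes it left 6 higher in aging and 2 in ALS. With the fold threshold none of them was lower and 1 in aging and 2 in ALS were higher. The interaction was 0.0022 for Kif3b with RLE factors and −0.0137 for Dync1i2 without a filter. On log2(FPKM + 1) the aging ratio differed by 0.11 for Kif5c to Kif5b and 0.0422 for Dctn1 to Dync1h1.

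With each library left out, values ranged in aging from −0.14 to −0.10 for Kif1a, −0.14 to −0.0856 for Kif1b and −0.19 to −0.13 for Kif3b, and in ALS from −0.64 to −0.43 for Kif1b, −0.51 to −0.33 for Dync1h1 and −0.0316 to 0.17 for Kif1c. Other transport genes in ALS numbered 14 to 45 lower and 0 to 5 higher, beside 715 to 3172 lower and 1638 to 3476 higher of all genes. The interaction ranged from −0.43 to −0.19 for Kif3a, −0.0645 to 0.0656 for Kif3b, −0.52 to −0.32 for Dync1h1 and −0.06 to 0.057 for Dync1i2. Aging ratio differences ranged from −0.0033 to 0.0357 for Kif5a to Kif5b, −0.20 to −0.12 for Kif3a to Kif3b, −0.0113 to 0.0214 for Kif1a to Kif1b, 0.0719 to 0.11 for Dync1i1 to Dync1i2 and −0.0238 to 0.0384 for Dctn1 to Dync1h1. Leaving out 1 of 3 mice leaves 2 in that group. The cause of these shifts was not tested.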
